A study of Bubalus bubalis with 8 samples.

Results

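HSP110, HSP90 and the mitochondrial HSP60/HSP10 pair are the large ATP-driven chaperone machines of the heat shock response, and 5 genes that code for them were followed here in buffalo mammary epithelial cells (MECs) recovering from heat. All probes whose gene name on the array was HSPH1, HSP90AA1, HSP90AB1, HSPD1 or HSPE1 were taken, whatever their signal. They were 20 of 43653 probes, for 5 of 24839 gene names, with 1 for HSPH1, 6 for HSP90AA1, 6 for HSP90AB1, 5 for HSPD1 and 2 for HSPE1. Primary MECs of riverine buffalo (Bubalus bubalis, female) at passage 10 were either kept at 37 °C as unstressed cells (CTR) or held for 1 h at 42 °C, returned to 37 °C and harvested after 30 min of recovery or after 2, 4, 8, 12, 16 or 24 h of it. The harvests up to 4 h are called early and those from 8 h on late, and a series of levels follows the order of harvest. RNA of each of these 8 conditions was labelled with the dye Cy3 and put on 1 bovine array with 60-base probes, so the probes were designed on another species than the one tested. With 1 array per condition no condition has a replicate and no test was possible, so the values below carry no p-value and their precision is limited by the number of arrays. The labels name no second culture or animal for any condition.

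HSP90 is a dimeric chaperone that finishes the folding of client proteins such as steroid receptors and kinases, with HSP90AA1 coding for its stress-inducible alpha form and HSP90AB1 for the beta form that most cells make all the time. HSPH1 codes for HSP110 (HSP105), a relative of HSP70 that recharges HSP70 with ATP and helps to dissolve protein aggregates. HSPD1 (HSP60) and HSPE1 (HSP10) form the barrel and the lid of the chaperonin inside mitochondria, and the genes lie head to head on the chromosome. Heat shock factor 1 switches on many of these genes when unfolded proteins draw HSP90 and HSP70 away from it.

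The level of a probe is its intensity on the log2 scale relative to the 75th percentile on the same array, which thus has the level 0, and a change is the level at a time point minus that in CTR. The error given with a change is the SD between spots of 1 bright probe, combined over both arrays. On the log2 scale it was smallest for the 8 h array (0.31), 0.34 to 0.37 for those of 12 h, 2 h, 4 h and 24 h, and largest for that of 16 h (0.53), and it covers the array and not the cells. A gene is said to have risen or fallen only past 3-fold, a log2 change of 1.58. The 30 min values come from the log2 table deposited by the authors, because the changes from CTR in that table and in the scanner intensities differed there by a median of -2.33 (table minus scanner). Their error was set to 0.31 from the spots of CTR, and so holds no spread of the 30 min array itself. That array was the dimmest, with a scanner intensity of 48.6 at the 75th percentile against 121 to 423 on the others. It had 1462 spots marked as outliers, against 4 to 72 on the others.

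Some arrays stood apart. The slide that held CTR also held the late harvests apart from 16 h, and the 16 h array lay with the early ones on the other slide. The CTR array had a dark region of 2600 spot positions in rows 217 to 327 and columns 29 to 61, where bright probes fell as low as -4.28 from their median on the other arrays. The array of 16 h had a weaker one of 1339 positions. The HSP90AB1 probe A_73_P102006 lay in the dark region of CTR, and the HSP90AA1 probe A_73_P129021 in that of 16 h. Of the 11 epithelial marker genes 9 were well above background in CTR (KRT18 and CLDN3 were not). Their summed level was 765 in CTR, 250, 256 and 378 on the early arrays and 529 to 620 on the late ones, and their median change was -1.16 at 30 min and -1.23 at 2 h. Milk protein genes, of which 5 of a list of 6 were on the array, reached a summed linear level of 1409 at 16 h and of 610 at 4 h, with 52.8 and 32.7 on the arrays of 30 min and 2 h, against 3.98 to 4.93 on the 4 arrays of the CTR slide. Leukocyte genes (10 on the array) summed to 114 at 30 min and 79.8 at 2 h, against 13.1 to 27.5 on the other 6 arrays. The high milk protein and leukocyte levels and the lowest epithelial levels thus fall on arrays of the second slide, and their part in the values read there was not tested. Fewer cells of a type and less RNA per cell cannot be told apart here.

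The probe sequences show what each value can separate. HSP90AA1 and HSP90AB1 are close relatives, and stretches of their probes cover the same part of both messages. They are given 5′ to 3′ with bases that differ from the other gene in capitals, first for a pair that overlaps by 28 bases with 3 differences and then for a pair that overlaps by 57 bases with 11 differences (80.7% identity).
HSP90AA1 A_73_P449761: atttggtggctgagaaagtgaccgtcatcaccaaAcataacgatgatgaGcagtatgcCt
HSP90AB1 A_73_P226217: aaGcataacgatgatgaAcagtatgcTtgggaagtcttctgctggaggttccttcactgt
HSP90AA1 A_73_P103241: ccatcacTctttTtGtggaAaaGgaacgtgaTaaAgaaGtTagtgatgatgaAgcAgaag
HSP90AB1 A_73_P103306: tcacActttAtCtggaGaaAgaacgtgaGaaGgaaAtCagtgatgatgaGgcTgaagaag
On the bovine build the array names, Btau 3.1, these probes match the minus strand of chr21:67028817-67028876, the plus strand of chr23:18390168-18390226, the minus strand of chr21:67027997-67028342 and the plus strand of chr23:18390504-18390686. The last 2 intervals are longer than the probe, so each of these probes joins 2 exons. How much RNA of the other gene such a probe binds was not tested.

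Within HSP90AB1, a pair of neighbouring probes shares 30 bases (capitals) with 1 substitution, T33G counted from the 5′ end of A_73_P475368, and this pair is shown because only 1 of its probes gave a usable signal.
HSP90AB1 A_73_P475368: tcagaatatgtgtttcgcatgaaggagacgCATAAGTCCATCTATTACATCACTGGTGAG
HSP90AB1 A_73_P102006: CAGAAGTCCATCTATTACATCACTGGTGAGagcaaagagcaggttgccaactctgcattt
They match chr23:18392062-18392245 and chr23:18392092-18392275 on the plus strand, across the same exon junction. A_73_P475368 was well above background at 2 h alone, with levels from -2.08 to -1.06 over the 8 arrays. A_73_P102006 was well above background on the 7 heat arrays, with levels from 2.10 to 2.86, and not in CTR, where it read -1.90 and its bright neighbours were lowered by 3.1. No fold is given for either probe.

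The remaining 18 probes were well above background in CTR and, apart from 1 HSPD1 probe at 16 h, at every time point. No member spot was saturated. The plot of all levels shows that 8 h was the highest array for most of them.

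**Figure D1:**
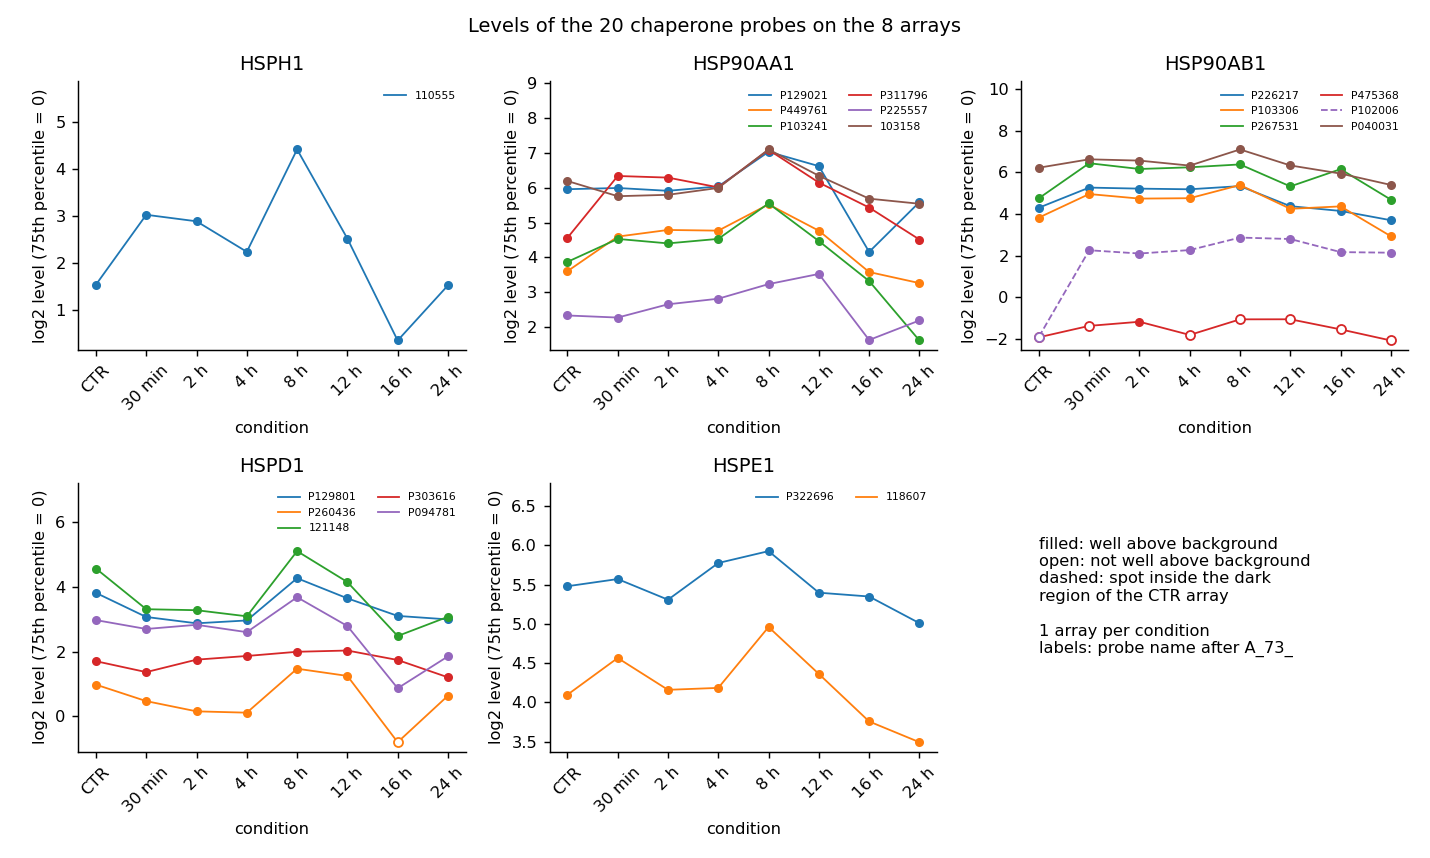
Log2 level (75th percentile of the array at 0) of each chaperone probe, 1 line per probe and 1 panel per gene, on the 8 arrays in order of time. HSPH1 peaked at 8 h with 4.43 against 1.55 in CTR, and the dashed HSP90AB1 probe lies in the dark region of the CTR array.

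At 8 h after the heat all 18 measured probes were higher than in CTR, and 17 of them by more than the error. Over all probes outside the dark region measured on both arrays, 39.2% were higher and 19.4% were higher by more than the error. Past 3-fold were 5 of the 18, against 1.96% of all probes measured on both arrays and 0.468% of those outside the dark region of CTR. These were the HSPH1 probe, 3 HSP90AA1 probes and 1 HSP90AB1 probe. Past 2-fold were 8 of the 18, against 4.87% (2.9% outside the dark region), and no HSPD1 or HSPE1 probe was among them. None of the 18 was 3-fold lower, against 0.13%. Once the local departures in brightness described with each gene were subtracted, HSPH1 alone was past 3-fold and 8 probes were past 2-fold, though not all of them the same 8. Both arrays of this comparison lie on 1 slide, and the summed leukocyte and milk protein levels at 8 h were 14.4 and 3.98 against 19.2 and 4.67 in CTR. The summed epithelial level at 8 h was 556.

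HSPH1 rose most. Its probe, A_73_110555 (chr12:29619632-29619691), read 1.55 in CTR, then 3.03, 2.89 and 2.24 over the early harvests and 4.43, 2.53, 0.36 and 1.53 over the late ones. The 8 h array stood alone at the top, 1.39 above the next one, 30 min, and 16 h stood alone at the bottom, 1.17 under 24 h. Both gaps exceeded the error, while the arrays of 30 min, 2 h, 12 h and 4 h followed each other within it, and CTR and 24 h differed by 0.015. The change at 8 h was 2.88 ± 0.31, or 7.36-fold, which only 0.048% of all measured probes equalled or passed. At 30 min and 2 h it was 1.49 ± 0.31 (2.81-fold) and 1.35 ± 0.35 (2.55-fold), under the 3-fold limit. Other settings took these values past it. With the median of the array they were 2.45 and 2.05. With local departures subtracted the 30 min value was 1.62, and with normexp background correction the 2 h value was 1.75. Normexp was not applied to the 30 min values. At 16 h the change was -1.19 ± 0.53. Among the bright neighbours of this spot the local departure stayed between -0.17 and 0.16 on every array, and after it was subtracted the change at 8 h was 2.68.

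HSP90AA1 was higher at 8 h on each of its 6 probes, by 0.90 to 2.52, with a median of 1.37 (2.59-fold). The probe with the largest change was A_73_P311796, which started from 4.56 in CTR and took the early values 6.33, 6.29 and 6.01 and the late values 7.08, 6.15, 5.43 and 4.51. It rose 5.75-fold at 8 h, after 3.42-fold and 3.31-fold on the first 2 heat arrays, and at 12 h it lay on the limit (1.59). It is the only HSP90 probe past 3-fold at 2 h or 12 h. Its spot lies just outside the dark region of CTR, and its bright CTR neighbours were lowered by 0.59. With the local departures of both arrays subtracted, its change was 1.55 at 8 h and 1.44 at 30 min, both under 3-fold.

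The probe nearest the 5′ end, A_73_P449761, had a CTR level of 3.60, early levels of 4.60, 4.79 and 4.77, and late levels of 5.52, 4.77, 3.58 and 3.26. It rose 3.77-fold at 8 h and was back within the error of CTR by 16 h. A_73_P103241 read 3.87 in CTR, then 4.53, 4.40 and 4.53 over the early harvests and 5.55, 4.47, 3.32 and 1.62 over the late ones. Its rise at 8 h was 3.19-fold. By 24 h it fell by 2.25 ± 0.37 on the log2 scale, where the other 5 HSP90AA1 probes were between -0.65 and -0.05. The 3 probes nearest the 3′ end (A_73_P225557, A_73_P129021 and A_73_103158) were higher at 8 h by 0.90, 1.07 and 0.90.

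In HSP90AA1 the 3 probes on the 5′ side had the larger changes on some arrays, though the changes did not follow position step by step. From 5′ to 3′, at 0, 534, 2341, 2523, 3968 and 4155 bases of genome from the first probe, the changes at 8 h were 1.92, 1.68, 2.52, 0.90, 1.07 and 0.90. At 2 h they were 1.18, 0.53, 1.73, 0.32, -0.05 and -0.40. The 3 probes on the 5′ side were above the 3 on the 3′ side on all early arrays and at 8 h, but not on the later ones. This split was chosen after the values were seen and was not tested. In HSP90AB1 the last probe, A_73_P040031 at 3272 bases, had the smallest change of the 4 on the same arrays, with 0.88 at 8 h against 1.04 to 1.62. The local departures in CTR were 0.49 at A_73_103158 and 0.25 at A_73_P129021, and -0.59 at A_73_P311796. After the departures of both arrays were subtracted the 6 HSP90AA1 probes were, from 5′ to 3′, at 1.55, 1.58, 1.55, 0.91, 1.46 and 1.12 at 8 h. All were then just under 3-fold or lower. The gap between the 2 sides at 8 h then shrank from 0.60 to 0.09, which is within the error. On the early arrays it was then 0.46, 0.46 and 0.27, against 0.62, 0.21 and 0.18 as measured. The errors there were 0.31, 0.35 and 0.35. After the subtraction the sides were also apart at 16 h, by 0.11, and not at 12 h or 24 h.

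**Figure D2:**
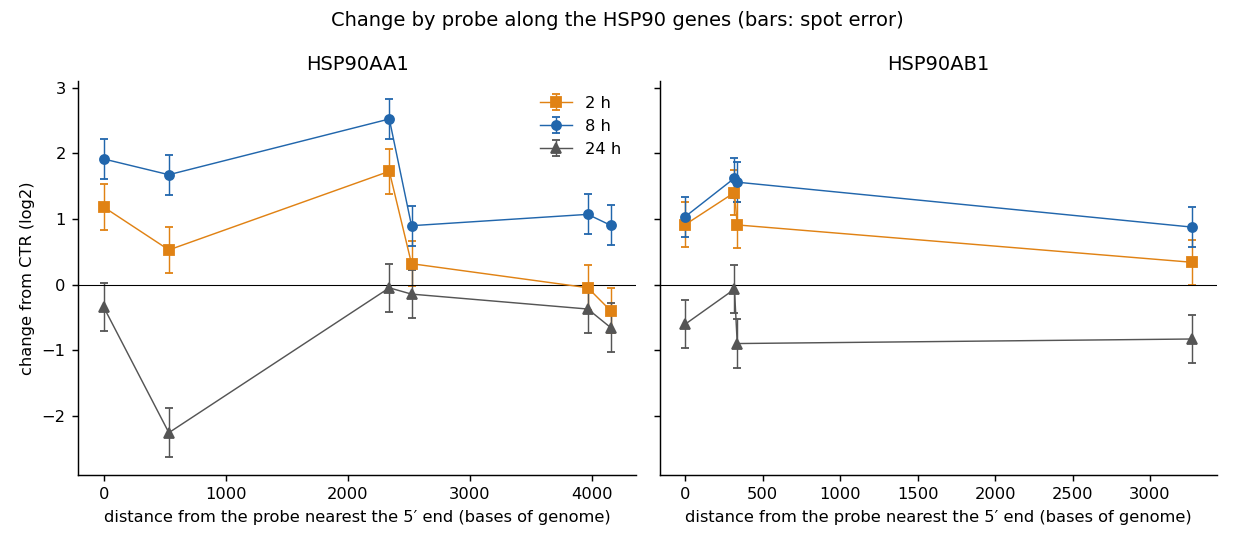
Change from CTR (log2, bars: spot error) of each measured HSP90AA1 and HSP90AB1 probe against its distance from the probe nearest the 5′ end, in bases of genome, at 2 h, 8 h and 24 h. At 8 h HSP90AA1 changed by 1.68 to 2.52 on the 5′ side and by 0.90 to 1.07 on the 3′ side, and 1 probe alone was at -2.25 at 24 h.

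HSP90AB1, the beta form, was higher on all 4 measured probes on each array up to 12 h, and by more than the error on all 4 at 30 min and 8 h. Its median change was 1.05, 0.91 and 0.91 over the early harvests, 1.30 (2.46-fold) at 8 h, and then 0.27, 0.19 and -0.71 over the rest. The 8 h array and the 3 early ones followed each other within the error, so no peak can be named among them, while 24 h was the lowest, 0.55 under CTR by the median level. A_73_P267531 started from 4.75 in CTR and took the early values 6.43, 6.15 and 6.24 and the late values 6.37, 5.32, 6.15 and 4.68, and rose 3.21-fold at 30 min and 3.08-fold at 8 h as measured. A_73_P103306 overlaps it by 42 bases with the substitution G32A, counted from its own 5′ end. It had a CTR level of 3.82, early levels of 4.95, 4.73 and 4.75, and late levels of 5.38, 4.24, 4.36 and 2.93. These 2 probes were within 0.06 of each other at 8 h, and 0.86 apart at 16 h and 0.83 apart at 24 h. The bright CTR neighbours of A_73_P267531 and A_73_P103306 were lowered by 0.40 and 0.29, and with local departures subtracted the changes at 8 h were 0.99 and 1.10. That of A_73_P267531 at 30 min was then 1.25, under 3-fold. For A_73_P102006, inside the dark region, the same subtraction gave 1.47. As this probe was not well above background in CTR, that value is not counted as a measured change.

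**Figure D3:**
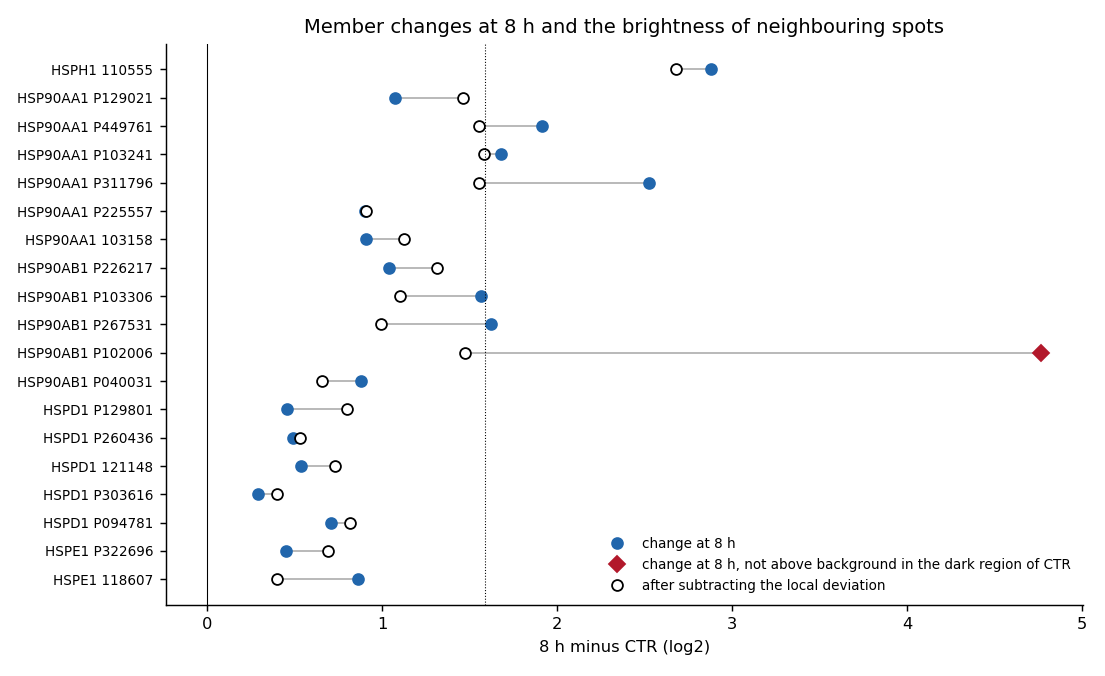
Change at 8 h (log2) of each member probe well above background at 8 h, as measured (filled) and after the median departure of bright neighbouring spots was subtracted on both arrays (open), with 3-fold as a dotted line. A_73_P311796 moved from 2.52 to 1.55, and HSPH1 at 2.68 stayed past 3-fold. The HSP90AB1 probe in the dark region of CTR, not well above background there, moved to 1.47 and is not counted as measured.

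The alpha and beta genes had medians of 1.37 and 1.30 at 8 h, a difference of 0.075 that is under the error of 1 probe (0.31). With local departures subtracted the medians were 1.51 and 1.05 and the difference, 0.46, passed that error. HSP90AB1 had the higher median over the early harvests, by 0.70, 0.49 and 0.34 (0.35, 0.23 and 0.16 after the subtraction), and by 0.72 at 16 h. HSP90AA1 had the higher one at 12 h (by 0.65) and 24 h (0.36). The ranges of their probes overlapped at all 7 time points. Whether the genes differ was not tested.

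HSPD1, the HSP60 barrel, was higher at 8 h on all 5 probes by 0.29 to 0.71, with a median of 0.49 (1.41-fold), and 4 of them exceeded the error. Over the early harvests it was lower than CTR, with medians of -0.51, -0.82 and -0.85. With local departures subtracted these were -0.31, -0.31 and -0.38, against an error of 1 probe of 0.31, 0.35 and 0.35. The medians over all genes were -0.19, -0.38 and -0.16 on these arrays, and those of the housekeeping genes -0.47, -0.62 and -0.50. A_73_121148 read 4.56 in CTR, then 3.31, 3.28 and 3.09 over the early harvests and 5.10, 4.14, 2.48 and 3.07 over the late ones. A_73_P094781 started from 2.97 in CTR and took the early values 2.70, 2.82 and 2.60 and the late values 3.68, 2.79, 0.87 and 1.85. Both fell at 16 h, by 2.08 and 2.10 on the log2 scale with an error of 0.53. A_73_P260436 was not well above background at 16 h and was at least 2.07-fold lower there, taking the higher of its own signal and the lowest signal well above background. A_73_P129801 was at -0.71 and A_73_P303616 at 0.04, so the 5 probes disagreed at 16 h by more than the error. The bright 16 h neighbours of A_73_121148, A_73_P094781 and A_73_P260436 departed by -0.25, 0.27 and -0.72. With the departures of both arrays subtracted their changes were -1.54, -2.22 and -0.81, so A_73_P094781 alone stayed past 3-fold and that of A_73_P260436 was a smaller fall than the bound given for it as measured.

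HSPE1, the HSP10 lid, was the only one of the 5 genes with no probe past 2-fold at any time point. A_73_118607, which joins 2 exons within chr2:90252340-90252478 on the plus strand, had a CTR level of 4.10, early levels of 4.57, 4.16 and 4.18, and late levels of 4.96, 4.36, 3.76 and 3.49. A_73_P322696 read 5.48 in CTR, then 5.57, 5.31 and 5.78 over the early harvests and 5.93, 5.40, 5.35 and 5.01 over the late ones. Both were highest at 8 h (by 0.86 and 0.45) and lowest at 24 h (by -0.60 and -0.47). As measured, the median of HSPE1 was above that of HSPD1 at each of the 7 time points, by 0.16 at 8 h and by 1.04 and 1.16 at 4 h and 16 h. With local departures subtracted it stayed above on the early arrays, by 0.67, 0.49 and 0.40, and at 16 h, by 1.18. The order turned at 8 h, 12 h and 24 h, where HSPE1 minus HSPD1 was then -0.18, -0.28 and -0.07. The measured probe ranges of both genes overlapped at 6 of the 7 time points, all but 30 min. For the chaperonin the HSPD1 probe with the deepest fall at 16 h and the HSPE1 probe with the larger change at 8 h are shown, in lower case throughout.
HSPD1 A_73_P094781: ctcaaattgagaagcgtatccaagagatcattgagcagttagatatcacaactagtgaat
HSPE1 A_73_118607: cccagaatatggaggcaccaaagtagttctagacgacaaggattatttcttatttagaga

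Counted over all members, the times other than 8 h held few 3-fold changes. After 30 min 2 of 18 probes were 3-fold higher, against 4.98% of all probes, and none was 3-fold lower, against 4.79%. The 2 h array held 1 higher probe of 18, against 3.54%, and no lower one, against 8.68%. The 4 h array held neither a higher probe, against 2.92%, nor a lower one, against 5.13%. On the 12 h array 1 probe was higher, against 1.42%, and none lower, against 0.457%. Without passing 3-fold, HSPH1 (0.98) and the median of HSP90AA1 (0.91) at 12 h lay above the 95th percentile of all measured probes (0.61). The 16 h array held 3 lower probes of 17, against 3.62%, and no higher one, against 4.51%. Of these 3, A_73_P129021 lay in the dark region of that array. At 24 h 1 of 18 was 3-fold lower, against 0.408%, and none higher, against 1.57%. All 18 were lower than CTR to some extent by then, against 61.4% of all probes, and 12 of them by more than the error, against 27.7%. HSPH1 was at -0.015 there, and its sign turned with normexp (0.32), quantile normalization (0.019) and the 75th percentile over bright probes (0.087). A_73_P225557 was at 0.09 with local departures subtracted. The shares of all probes 3-fold higher include the dark region of CTR, where probes read too low in CTR. Outside it they were 3.53%, 2.46% and 1.72% on the early arrays, and 0.144%, 3.03% and 0.0752% on those after 8 h. The medians over the 18 probes were 0.90 at 8 h and -0.55 at 24 h, and those of all measured probes were -0.11 at both times. By gene, the median of the 5 members at 24 h was -0.54, and that of 9 measured housekeeping genes was also -0.54. Lower values at 24 h were thus not particular to the members.

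**Figure D4:**
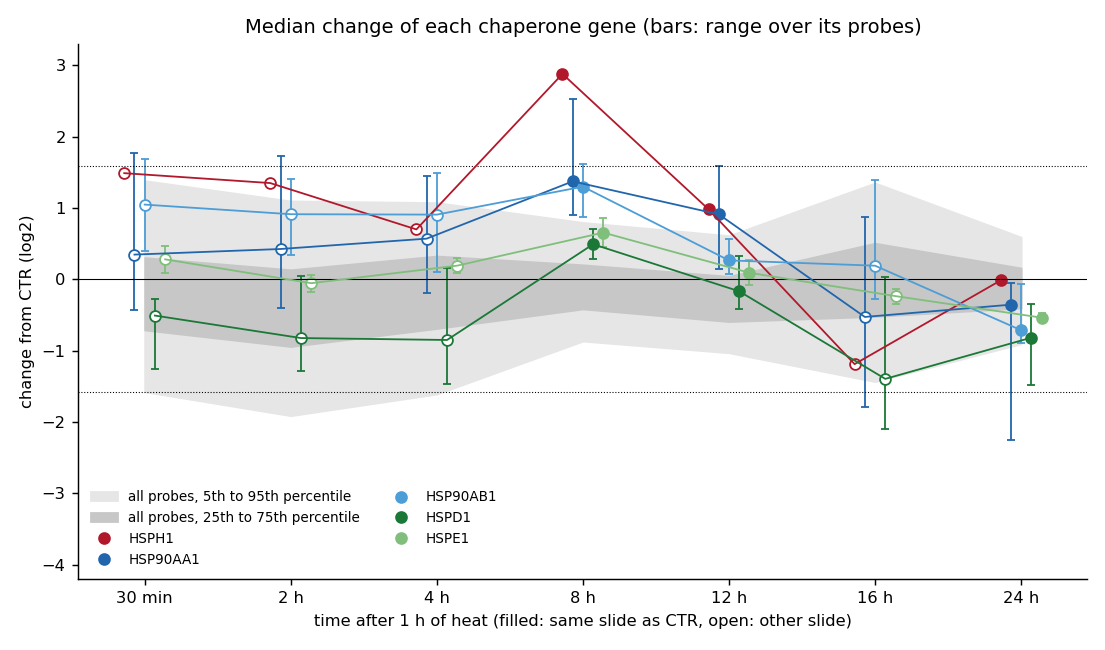
Median change from CTR (log2) of each gene at 7 time points, with bars for the range over its probes, over the spread of all measured probes in grey (5th to 95th and 25th to 75th percentile) and 3-fold as dotted lines. At 8 h HSPH1 (2.88), HSP90AA1 (1.37) and HSP90AB1 (1.30) lie above the 95th percentile, and at 24 h all 5 medians lie below 0, that of HSPH1 by 0.015. HSPH1 at 30 min (1.49), 2 h (1.35) and 12 h (0.98) and HSP90AA1 at 12 h (0.91) also lie above the 95th percentile.

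Within the slide of the early arrays, where 16 h took the place of CTR, the medians of HSPH1 were 2.68, 2.54 and 1.89 above 16 h in order of harvest. Those of HSP90AA1 were 0.96, 1.05 and 1.18, of HSP90AB1 0.64, 0.50 and 0.39, of HSPD1 0.40, 0.40 and 0.37, and of HSPE1 0.52, 0.18 and 0.43. HSPH1 was thus past 3-fold at all 3 times against 16 h, and the sign of HSPD1 turned from that against CTR. The 16 h array was the lowest of all for both genes, for HSPD1 within the error. Its spot SD alone was 0.48, above all 3 differences of HSPD1 and those of HSPE1 at 2 h and 4 h. The measured HSPD1 probes ran from -0.37 to 1.83 at 30 min. Against CTR, HSPH1 was not past 3-fold at these times.

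The partners of these chaperones were read from lists of genes, each gene by the median of its measured probes. At 8 h 29 of 7261 measured genes (0.399%) were 3-fold higher, and 5 of these 29 were members or listed partners, namely HSPH1, HSPA1A, BAG3, DNAJB1 and CACYBP. The shares of all genes 3-fold higher on the other arrays were 3.41%, 2.41% and 1.63% over the early harvests, and 0.145%, 2.96% and 0.0613% over the 3 that followed 8 h. The shares 3-fold lower were 4.32%, 8.6% and 4.73% over the early harvests, 0.124% at 8 h, and 0.474%, 2.77% and 0.245% after that. Of 12 measured HSP70 partners of HSP110, 3 rose and none fell at 8 h, with a list median of 0.29 against -0.11 over all genes. HSPA1A, the inducible HSP70, rose by 4.56 at 8 h and was also past 3-fold on the arrays of 30 min (2.35), 2 h (2.09) and 12 h (2.40). BAG3, which links HSP70 to autophagy, rose by 2.24 at 8 h, and DNAJB1, the HSP40 that hands clients to HSP70, by 1.65. HSPA8, the constitutive HSP70, stood 0.98 above CTR at 8 h and by 24 h fell by 1.82. BAG2, an inhibitor of client ubiquitylation, stood 1.17 above CTR at 8 h, and on the single probe measured at 16 h it fell by 1.73. That fall was lost with normexp and with local departures subtracted, the fall of HSPA8 with normexp, and normexp left 2 of the 3 rises at 8 h. HSPA4, another HSP110 relative, had a change of -1.48 at 2 h and of 0.21 at 8 h.

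Of the HSP90 co-chaperones, with the HSP90 forms of the endoplasmic reticulum and mitochondria among them, 16 were measured at 8 h and 1 rose. That was CACYBP, an adaptor of ubiquitin ligases that resembles co-chaperone SGT1, with 2.10 at 8 h and 1.30 at 12 h on 1 probe. The list median was 0.38 at 8 h. FKBP4, a co-chaperone of steroid receptors, was at 1.47 at 4 h and 0.38 at 8 h. HSP90B1, the HSP90 of the endoplasmic reticulum, was at 0.71 at 8 h and -1.47 at 24 h. UNC45A, which serves myosin folding, was at -0.95 at 2 h, TOMM34 at 0.91 at 30 min and AHSA2 at -1.52 at 4 h. At the scaling used here no gene of this list passed 3-fold at another time point, while normexp and the subtraction of local departures each put 1 gene past it at 4 h and 1 at 12 h.

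No gene of the other 3 lists was 3-fold higher or lower at any time at this scaling, and with local departures subtracted 1 client gene was higher at 30 min. Of the mitochondrial chaperones and proteases 15 were measured at 8 h, with a median of -0.04. The largest changes in this list were HSCB, an iron-sulphur co-chaperone (-1.22 at 2 h), YME1L1 (-0.98 at 16 h), CLPP (0.90 at 4 h), SPG7 (-0.76 at 2 h), TRAP1, the mitochondrial HSP90 (-0.75 at 4 h), and DNAJA3 (-0.74 at 2 h). Of the heat shock factors and regulators 4 were measured at 8 h. HSF1 was at 0.96 at 16 h on 1 probe and at -0.63 at 2 h on 2, so these values do not rest on the same probes. DAXX was at -1.11 at 16 h, EEF1A1 at -0.54 at 8 h and HSBP1, a binder of heat shock factor, at -0.45 at 30 min. Of the HSP90 clients 8 were measured at 8 h, with a median of -0.30. EGFR was at -1.43 at 2 h, NR3C1, the glucocorticoid receptor, at 1.40 at 30 min, AKT1 at -1.27 at 2 h, CHUK at -0.93 at 2 h, RIPK1 at 0.90 at 30 min and IKBKB at 0.85 at 2 h. Among 10 housekeeping genes measured at 8 h none passed 3-fold, and their median was -0.39. At other times B2M rose at 30 min (2.01) and 2 h (1.66), and RPS23 fell at 16 h (-1.74). Of 10 fibroblast markers 4 were well above background in CTR and 4 at 8 h, with summed levels of 186 and 143 and a range of 57.1 to 169 over the other arrays.

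**Figure D5:**
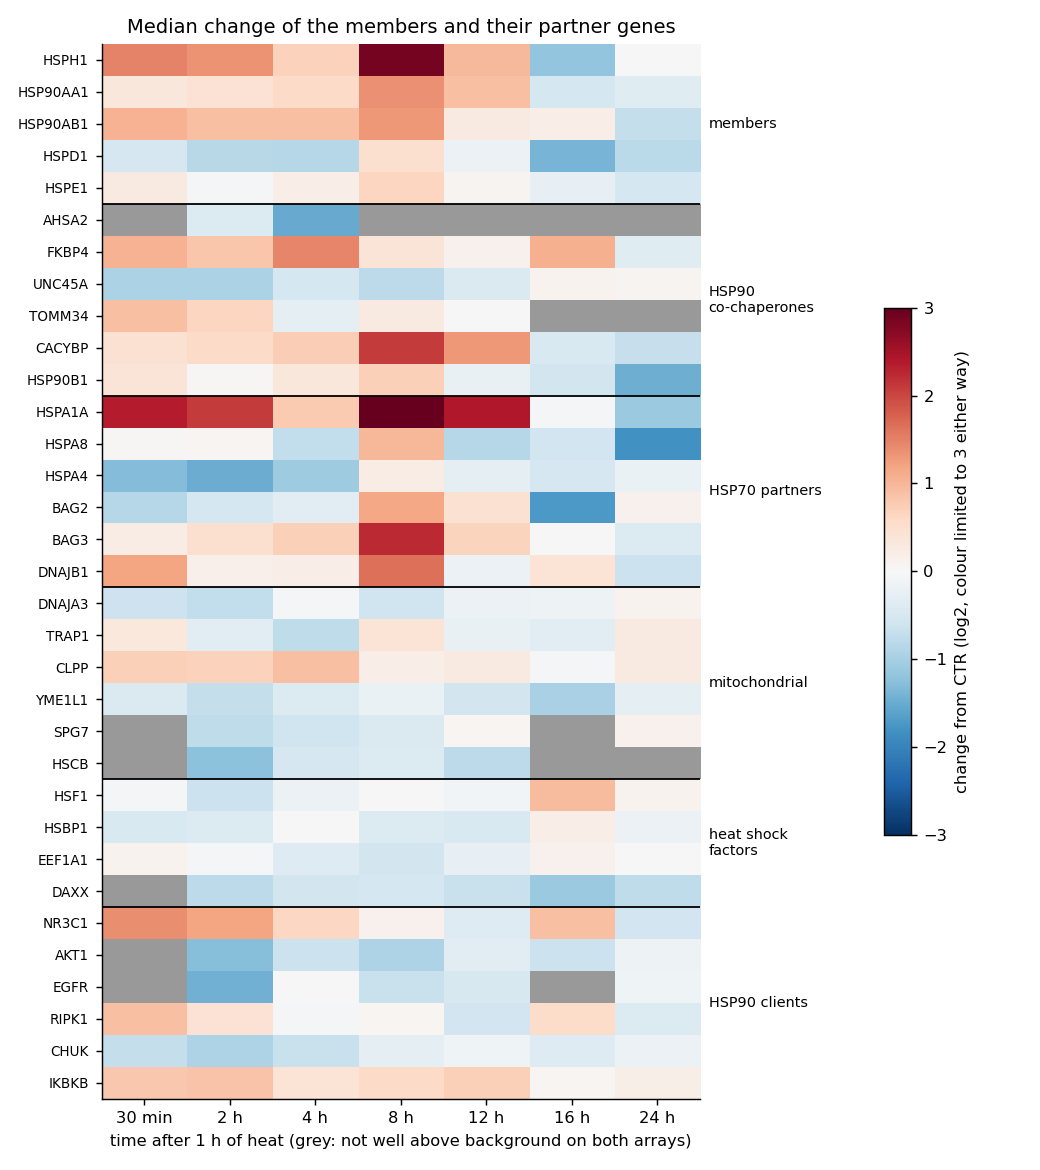
Median change from CTR (log2, colour limited to 3 either way, grey where not measured) of the 5 members and of up to 6 genes from each partner list with the largest change at any time. The 8 h column holds the 2 highest values, HSPA1A (4.56) and HSPH1 (2.88), and also BAG3 (2.24) and CACYBP (2.10), while the mitochondrial, heat shock factor and client genes stay under 3-fold at this scaling.

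The genes most like each member over the 8 arrays were found by Pearson's r between its brightest probe and 7485 probes with a gene symbol measured above background on 7 or more arrays. These r values rest on 8 arrays that share slides and dark regions, and are a description. The brightest HSP90AA1 probe, A_73_103158, was at -0.44, -0.40 and -0.20 on the early arrays, where the medians of the gene were 0.35, 0.43 and 0.57. The brightest HSP90AB1 probe, A_73_P040031, was at 0.40, 0.34 and 0.10 there, against gene medians of 1.05, 0.91 and 0.91. That of HSPD1, A_73_121148, was at -1.26, -1.29 and -1.47, against -0.51, -0.82 and -0.85. The r values, also those between members, thus describe these probes and not the medians of the genes. HSPH1 was most like NDUFAB1 (0.98), RUVBL1 (0.97) and TDG (0.96), and HSP90AA1 most like PDIA5 (0.98), RBM18 (0.98) and ZNF238 (0.97). HSP90AB1 was most like SF1 (0.97), HSPA5 (0.97) and UGCG (0.97), HSPD1 most like BRWD1 (0.99), SF3A3 (0.97) and NDUFA5 (0.96), and HSPE1 most like STT3A (0.94), DUT (0.93) and PFDN5 (0.92). A high r takes no account of the size of the changes. At 8 h NDUFAB1 was at 0.62 against 2.88 for HSPH1, and BRWD1 at 0.11 against 0.54 for the HSPD1 probe. PDIA5, in contrast, was at 1.09 against 0.90 for the HSP90AA1 probe. Between the brightest probes of the members themselves r ran from 0.51 (HSPD1 and HSPE1) to 0.89 (HSP90AA1 and HSPD1), and none of the 5 was among the 3 genes most like another.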

How the data were processed

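RNA of 8 conditions was read on Agilent bovine arrays with 1 colour, 1 array per condition. Per the file headers, the deposited intensity of each spot was made with Feature Extraction 9.5.3.1, which corrects trends within an array. A deposited table of GeneSpring log2 values, scaled to the 75th percentile with every probe centred on its median, served at 30 min. The deposited mean and background intensity of each spot served for normexp alone.

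Here log2 intensities of 43653 probes were scaled to the 75th percentile of their array. Outlier-marked spots were dropped and repeat spots averaged. A probe counted as measured when well above background on both arrays, at 30 min when at or above 0.24, the highest limit of the other arrays. A position was dark where bright probes within 10 spots departed by a median of -1 or lower, from at least 5 probes. Intensities have no read depth. The number of arrays limits the precision. No test was made. Alternatives were the median, the 75th percentile over bright probes, quantile normalization, normexp with an offset of 50 (limma 3.58.1), deposited log2 values, 30 min scanner intensities, outlier-marked spots kept, the 16 h array as reference, other filters, 2-fold, dark regions left out, the local departure subtracted and, for likeness, Spearman's rho and 7 arrays. The steps were tested on simulated data.

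The members and lists were chosen with earlier results of these data known. Named were every member probe, up to 6 genes of each partner list with the largest change at any time among measured probes outside the dark region of CTR, and the 3 genes most like each member. One gene of the client list is not reported here. Marker and housekeeping genes are given as counts and ranges.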

Additional observations from a re-analysis of the deposited data

Results flagged for a closer look

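The HSP90AA1 probe A_73_P103241 changed past 3-fold in opposite directions at 2 time points, with 1.68 at 8 h and -2.25 at 24 h on the log2 scale. Each time point has 1 array, and the difference between them was not tested. The other 5 HSP90AA1 probes were between 0.90 and 2.52 at 8 h and between -0.65 and -0.05 at 24 h. The bright neighbours of this spot departed by 0.13 on the CTR array, by 0.23 on that of 8 h and by -0.13 on that of 24 h. With these subtracted the late change was -2.00.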

How the results depend on the processing

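At 8 h the median change of each of the 5 genes kept its sign under all 7 alternatives, with 2.63 to 3.05 for HSPH1, 1.26 to 1.54 for HSP90AA1, 1.05 to 1.47 for HSP90AB1, 0.46 to 0.73 for HSPD1 and 0.55 to 0.83 for HSPE1. Of these, the deposited log2 values and the outlier-marked spots kept could barely move a median. The former are scaled in the same way, and outside the 30 min array no member spot had an outlier mark. Over all times they moved gene medians by -0.016 to 0.005 and by -0.012 to 0.0007. Of 35 gene medians, the sign turned in 4 with the median of the array, 3 each with quantile normalization, normexp and the 75th percentile over bright probes, 2 with the local departure subtracted, 4 of 15 against the 16 h array and 1 of 4 with the 30 min scanner intensities. None of these was past 3-fold in the text. Normexp was not applied at 30 min, where the deposited change was kept, so the medians there could not turn with it. The median of the array shifted gene medians by -0.43 to 1.09. The cause was not tested. HSPD1 at 4 h was between -0.94 and 0.24 against CTR, and at 0.37 against the 16 h array, whose spot SD alone was 0.48.

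Under another setting 135 counts of members past 3-fold stayed within 1.5 times, and 35 did not. With the 2-fold limit the early arrays had 4, 4 and 3 higher probes and 1 lower probe each, and the late ones 8, 3, 1 and 0 higher, with 4 lower at 16 h and 3 at 24 h. With no filter, or with 1 of the 2 arrays above background, 2 were higher on the arrays of 2 h and 12 h and 1 on those of 4 h, 16 h and 24 h, which adds the probe in the dark region of CTR or A_73_P475368. With the median of the array the early arrays had 7, 6 and 7 higher probes and that of 24 h had 2 lower. Normexp gave 5 higher probes on the 2 h array, 3 on that of 4 h and 2 on that of 12 h. From the deposited log2 values none was higher at 12 h (0), quantile normalization made 1 lower at 4 h and the 30 min scanner intensities gave 11 higher. Chosen after seeing the data, the subtraction of the local departure gave 1 higher at 30 min (HSPH1, and no longer the 2 HSP90 probes), 0 on the arrays of 2 h and 12 h, 1 (HSPH1) at 8 h and 1 lower at 16 h. It gave 8 probes past 2-fold at 8 h, with HSP90AA1 at 0.91 to 1.58.

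Of the counts of partner genes past 3-fold, 24 moved by over 1.5 times and 406 did not. The 30 min scanner intensities and the median of the array gave 3 to 9 and 1 to 4 higher genes in lists where they moved the count, and the latter also 1 lower HSP90 co-chaperone at 24 h. With the 75th percentile over bright probes 1 HSP90 co-chaperone was lower at 4 h.

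Of the 3 genes most like each member, Spearman's rho kept 0 for HSPH1 and HSPD1, 1 for HSP90AA1 and HSP90AB1 and 2 for HSPE1, and without the 30 min array 3, 2, 3, 2 and 0 stayed. No paired analysis was possible because each condition has 1 array.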
